A study of Mus musculus with 38 samples.

Results

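The mir-17-92 and mir-106b-25 clusters are related groups of miRNA genes, and their 9 hairpins were followed here in mature mouse sperm. The members were chosen by name as mmu-mir-17, mmu-mir-18a, mmu-mir-19a, mmu-mir-20a, mmu-mir-19b-1 and mmu-mir-92a-1 of the first cluster and mmu-mir-106b, mmu-mir-93 and mmu-mir-25 of the second, named below without the species prefix. All 9 were listed in at least 1 mouse, among 689 miRNA hairpins listed in the series. A hairpin is the folded precursor from which the short mature miRNA is cut, and the counts gave reads per hairpin without separating its arms.

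Small RNA was sequenced from the free-swimming epididymal sperm of 38 male C57BL/6 J mice, which had been fasted and killed at 11 to 13 weeks of age. Mothers received a control (CT) diet with 20% protein or a protein-restricted (PR) diet with 8% protein from the day of the vaginal plug to weaning at 21 days, and their sons were then put on the CT or the PR diet until death. The CTCT group (n = 10) had the control diet throughout, CTPR (n = 9) was restricted after weaning only, PRCT (n = 9) was restricted through the mother only, and PRPR (n = 10) was restricted throughout. The first letters name the mother's diet and the last letters the diet after weaning. The labels name no mutation or transgene. Each group held at most 1 mouse per litter, and 8 litters of CT dams and 9 litters of PR dams gave a mouse to both of their groups. The littermates 47I1 and 47I2 are put in opposite groups by the labels and by a second sample list, and the labels were followed. The comparisons ask whether restriction before weaning, after weaning or in both periods goes with another level of these miRNAs in sperm.

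A miRNA guides a silencing complex to messenger RNAs that pair with its seed, bases 2 to 8 of the mature sequence. Hairpins of a cluster are cut from a shared primary transcript, so their output can be compared along it. The mir-17-92 cluster is known for promoting cell division and survival, is a target of the transcription factor Myc, and is needed for normal lung, heart and B cell development. It is also expressed in dividing male germ cells. The mir-106b-25 cluster lies in a gene for a replication factor and shares seeds with mir-17-92.

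The mature sequences show how the 9 hairpins fall into 4 seed groups. They are taken from RefSeq (GRCm38.p6) for the arm that is known to be the main product of each hairpin, with the seed in capitals. Which arm the reads came from was not resolved in the files.
mmu-miR-17-5p: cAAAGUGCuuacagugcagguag
mmu-miR-20a-5p: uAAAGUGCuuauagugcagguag
mmu-miR-106b-5p: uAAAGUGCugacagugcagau
mmu-miR-93-5p: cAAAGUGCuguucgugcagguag
mmu-miR-18a-5p: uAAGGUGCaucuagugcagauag
mmu-miR-19a-3p: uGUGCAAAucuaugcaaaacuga
mmu-miR-19b-3p: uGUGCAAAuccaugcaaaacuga
mmu-miR-92a-3p: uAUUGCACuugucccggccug
mmu-miR-25-3p: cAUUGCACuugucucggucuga

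The miR-17 seed group joins members of both clusters, mir-17 and mir-20a with mir-106b and mir-93. The mature miR-17 and miR-20a differ at 2 of 23 positions, and miR-17 and miR-93 at 4 of 23. The miR-92a seed group holds mir-92a-1 at the end of the first cluster and mir-25 at the end of the second, which differ at 3 of the 21 positions compared. The miR-19 seed group holds mir-19a and mir-19b-1, whose mature forms differ at 1 of 23 positions, and the seed of mir-18a is shared by no other member. Of 1679 mature mouse miRNAs in the RefSeq table, 7 carry the miR-17 seed, 6 the miR-92a seed, 2 the miR-18a seed and 2 the miR-19 seed.

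In GRCm38, the build that the authors mapped to as mm10, the 6 hairpins of mir-17-92 lie on chromosome 14, plus strand, within 836 bases (chr14:115043671-115044506). GENCODE places all of them in an exon of the single annotated transcript of Mir17hg, a long non-coding host gene at chr14:115042879-115046727. The 3 hairpins of mir-106b-25 lie on chromosome 5, minus strand, within 498 bases (chr5:138165321-138165818). They sit inside Mcm7 (chr5:138164583-138172422), which encodes a subunit of the helicase that opens DNA at replication. The mir-106b hairpin was intronic in both Mcm7 transcripts that span it, while mir-93 and mir-25 were each intronic in 2 spanning transcripts and overlapped an exon of 1 other.

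The libraries held 4465281 to 7612603 reads that matched the genome, and 7805 to 378918 of these were miRNA reads (0.158% to 5.55%). In 10 mice fewer than 50000 reads were miRNA, 3 in CTCT, 2 in CTPR, 2 in PRCT and 3 in PRPR, and the pairs 02A, 09H, 14A and 08G fell under this limit as whole pairs. The labelled tissue was checked with marker miRNAs. All 8 sperm and spermatogenic markers were listed, mir-34c the most, and their sum was 1.49% to 6.18% of miRNA reads. The 5 epididymal epithelium markers of the mir-200 family summed to 1.77% to 4.83%, the 4 smooth muscle markers (mir-143, mir-145a, mir-133a-1, mir-1a-1) to 3.93% to 14.9%, and the 4 blood markers to 0.0797% to 0.525%. The liver miRNA mir-122 was at 0 in 19 of the 38 mice. Sperm markers were thus present in every mouse, and so were epididymal and muscle markers. Which cells these reads came from was not tested. The study reports high sperm purity, from methylation at imprinting control regions and a representative RNA trace without ribosomal RNA peaks. The most abundant miRNAs were mir-148a at 20.5% ± 6.31 (SD, n = 38) of miRNA reads, mir-143 at 8.59% ± 1.96 and mir-3535 at 7.33% ± 6.00.

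The clusters were minor constituents of sperm miRNA. Their 9 hairpins together took a median of 0.89% of miRNA reads, with a range from 0.483% to 4.00% over mice. The mir-17-92 hairpins summed to 61.1 ± 40.1 reads per 1000000 genome-matching reads (RPM; SD, n = 38) and the mir-106b-25 hairpins to 79.1 ± 37.8 RPM. The 3 hairpins of the second cluster therefore outnumbered the 6 of the first. The ratio of mir-106b-25 to mir-17-92 reads had a median of 1.35, with a range from 0.766 in mouse 57P1 (CTPR) to 3.00 in mouse 59L1 (PRCT). In bulk sperm, fewer cells that carry a miRNA and less of it per cell cannot be told apart.

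Within each cluster the last hairpin in the direction of transcription gave the most reads on average. Over all mice mir-92a-1 made 63.2% ± 12.2 (SD, n = 38) of the reads of mir-17-92, and mir-25 made 64.3% ± 7.16 of the reads of mir-106b-25. Next came mir-20a with 25.4% ± 8.67 of its cluster and mir-93 with 23.5% ± 6.51 of its own. In mouse 35F1 (CTPR) mir-20a, at 45.5% of its cluster, was above mir-92a-1, at 43.5%. The other 4 hairpins of mir-17-92 were minor, with mean shares of 4.94% for mir-17, 3.82% for mir-18a, 1.57% for mir-19b-1 and 1.11% for mir-19a. Along the transcript mir-19b-1 lay between mir-20a and mir-92a-1, the most abundant hairpins of this cluster, while mir-19a lay between mir-18a and mir-20a. Ligation and PCR bias of small RNA libraries differs between sequences, and its part in these shares was not tested.

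**Figure D1:**
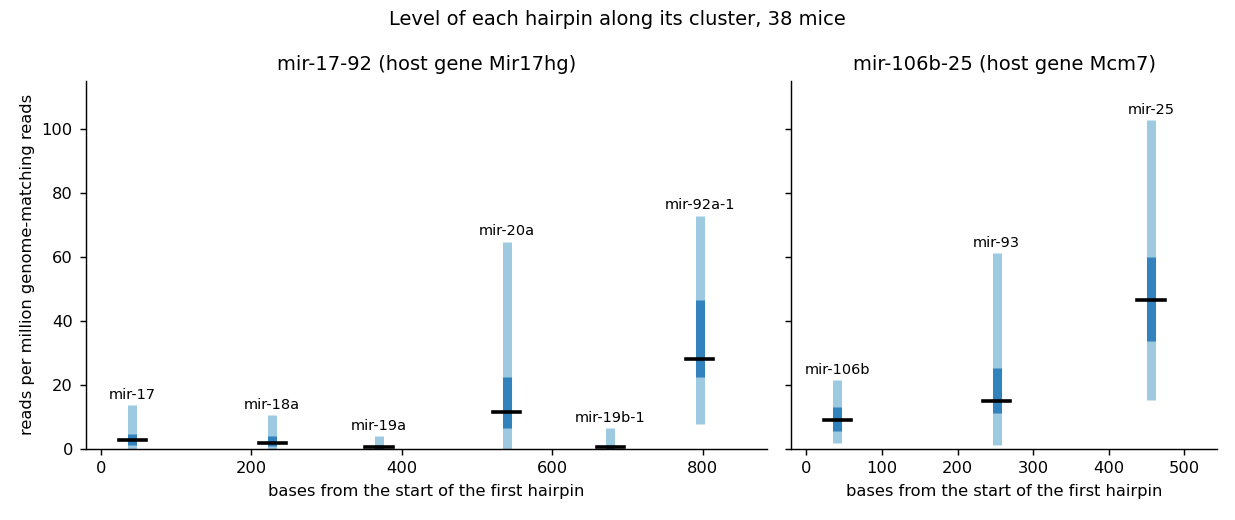
Level of each hairpin (y axis, reads per 1000000 genome-matching reads) against its distance from the start of the first hairpin of its cluster (x axis, bases, in the direction of transcription), for mir-17-92 on the left and mir-106b-25 on the right. Black bars are medians over 38 mice, dark blue spans the middle of the values from the lower to the upper quartile and light blue the whole range. The last hairpin of each cluster is the highest, with medians of 27.9 for mir-92a-1 and 46.5 for mir-25, and mir-19a (0.615) and mir-19b-1 (0.658) are the lowest.

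By median level the 9 hairpins fell in the order mir-25 (46.5 RPM), mir-92a-1 (27.9), mir-93 (15.1), mir-20a (11.5), mir-106b (9.07), mir-17 (2.70), mir-18a (1.83), mir-19b-1 (0.658) and mir-19a (0.615). Division by the length of the mature miRNA, 21 to 23 bases, left the order as it was, but such similar lengths could not have changed it. Some steps in this order were larger than their spread between mice. The level of mir-92a-1 was above that of mir-93 in 38 of 38 mice, and the level of mir-106b was above that of mir-17 in 38 of 38. The level of mir-25 was above that of mir-92a-1 in 34 of 38 mice, with a mean log2 difference of 0.52 ± 0.37 (SD, on log2 of RPM plus 1). Other neighbours were not separated beyond their spread. The level of mir-93 exceeded that of mir-20a in 31 of 38 mice (0.36 ± 0.51), that of mir-20a exceeded mir-106b in 31 of 38 (0.47 ± 0.83), that of mir-17 exceeded mir-18a in 23 of 38 (0.21 ± 0.58), and that of mir-19b-1 exceeded mir-19a in 17 of 38 (0.05 ± 0.82).

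By seed, the miR-92a group (mir-92a-1 and mir-25) carried a median of 62.8% of the reads of both clusters together, and the miR-17 group (mir-17, mir-20a, mir-106b and mir-93) carried 34.7%. Medians for mir-18a and for the miR-19 group were 1.47% and 1.00%. The miR-17 share ran from 11.2% in mouse 07C3 (CTCT) to 49.1% in mouse 57P1 (CTPR), the mice with the lowest and the highest percent of miRNA.

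Several members were at the edge of detection. Only mir-25 (92 to 702 reads), mir-92a-1 (51 to 488) and mir-106b (12 to 144) had at least 10 reads in every mouse. The hairpin mir-93 had 8 to 389 reads, and mir-20a had 0 to 443 and was unlisted in mouse 07C3 only. The hairpins mir-17 (0 to 93 reads) and mir-18a (0 to 72) were each unlisted in 4 mice, mir-19a (0 to 27) in 13 and mir-19b-1 (0 to 39) in 14. A count of 0 in these libraries allows up to 0.394 to 0.672 RPM, taken as 3 reads per library. In mouse 07C3, mir-92a-1 with 51 reads was the only hairpin of mir-17-92 listed. The files listed no member among reads that did not match the genome, in any of the 38 mice.

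In the paralogous cluster on the X chromosome, mir-106a-363, the hairpins with sequences of their own were close to absent. In all 38 mice together there were 3 reads of mir-106a, 7 of mir-18b, 1 of mir-20b and 31 of mir-363. Its other hairpins, mir-19b-2 (226 reads) and mir-92a-2 (296 reads), carry mature sequences identical to those of mir-19b-1 (236 reads) and mir-92a-1 (8476 reads). Reads of these copies cannot be told apart by the mature sequence, and the files divided them unevenly. For the mir-19b pair, 12 mice listed both copies, 12 only mir-19b-1, 9 only mir-19b-2 and 5 neither, whereas mir-92a-1 took 96.6% of the mir-92a reads. The counts of mir-19b-1 are therefore uncertain. The pair summed to a median of 1.32 RPM, which still lay under mir-18a. The remaining hairpins with the miR-92a seed, mir-32 and mir-92b, had 261 and 10 reads. The mature miR-106a differs from miR-17 at 1 of 23 positions, so a few reads could pass between these hairpins.

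The members with reads in every mouse, mir-93 aside, spanned a narrower range between mice than the miRNA class. From the lowest to the highest mouse, RPM spanned 6.67-fold for mir-25, 9.23-fold for mir-92a-1 and 11.6-fold for mir-106b, against 35.0-fold for all miRNA reads as a share of genome-matching reads. The exception was mir-93, with a 49.3-fold span. No such span can be given for the other members, which were at 0 in some mice. In mouse 02A8 (CTPR), with the fewest miRNA reads (7805), mir-25 made 1.68% of them (95% Wilson interval 1.42% to 1.99%) and mir-92a-1 made 1.33% (1.10% to 1.61%). In mouse 57P1 of the same group, with the most (378918), these shares were 0.108% (0.0985% to 0.119%) and 0.129% (0.118% to 0.141%). Both hairpins thus stood at a larger share of miRNA in mouse 02A8 than in mouse 57P1. For mir-20a the shares in these mice were 0.192% (0.117% to 0.317%) and 0.114% (0.104% to 0.125%), a smaller gap. Mouse 07C3 (CTCT) had the lowest miRNA percent, 0.158%, with mir-92a-1 at 0.499% of miRNA reads and mir-20a unlisted. A trend over all mice was not tested. The Wilson intervals cover counting error only, since PCR copies were counted as separate reads.

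**Figure D2:**
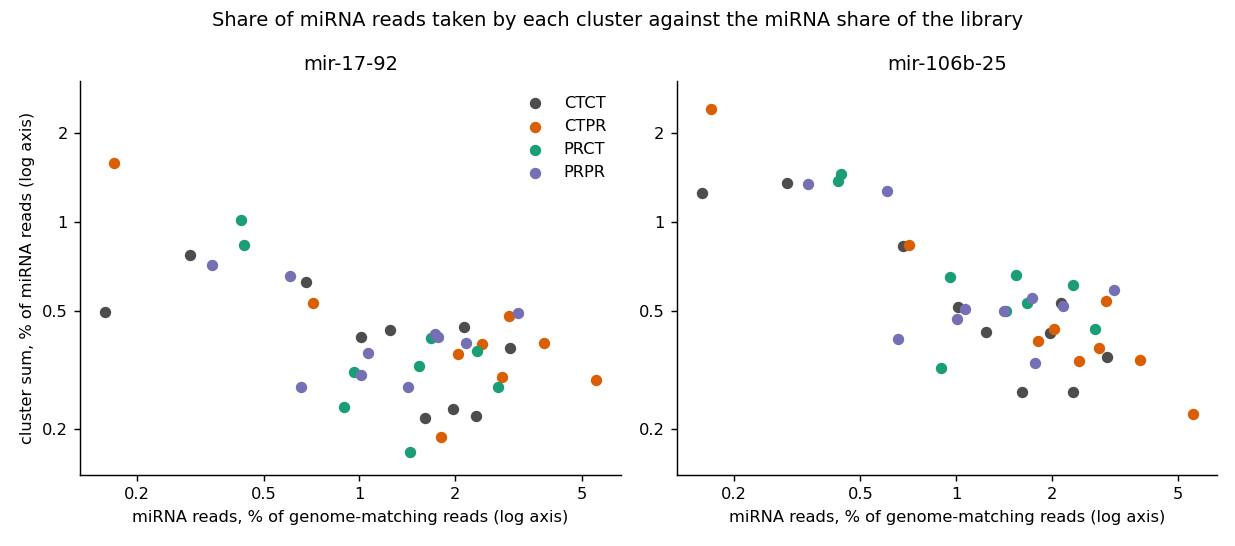
Sum of each cluster as a percent of miRNA reads (y axis, log scale) against miRNA reads as a percent of genome-matching reads (x axis, log scale), 1 point per mouse, coloured by diet group. Mouse 02A8 (CTPR) stands highest in both panels, at 1.59% for mir-17-92 and 2.41% for mir-106b-25 among the mice with the lowest miRNA percent. Mouse 07C3 (CTCT), at the far left, is lower, at 0.499% and 1.25%. The points share a denominator, since miRNA reads enter both axes.

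The miRNAs whose share of miRNA reads ran most like that of a cluster over the 38 mice included mir-191 and mir-743a for both clusters. For mir-17-92 they were mir-191 (Spearman rho 0.893), mir-743a (0.867) and mir-34b (0.827). For mir-106b-25 they were mir-871 (0.891), mir-743a (0.873) and mir-191 (0.837). The shares of the clusters themselves had a rho of 0.754. The median rho over the 63 other miRNAs with at least 10 reads in every mouse was 0.141 for mir-17-92 and 0.0898 for mir-106b-25. All of these shares come from the same libraries and have the same denominator.

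Restriction after weaning in sons of CT dams (CTPR against CTCT) went with higher mean RPM of all 9 members, by 0.51 to 1.16 on the log2 scale for the 7 that were tested. None passed the test after adjustment, and the median over all miRNAs tested was as large as that of the members. The level of mir-20a was 0 RPM at its lowest, 11.6 at its median and 36.5 at its highest in CTCT, and 3.26, 22.6 and 64.7 in CTPR. The groups overlapped, with 3 of 9 CTPR mice above the highest CTCT mouse. Means were 14.3 ± 11.6 RPM (SD, n = 10) in CTCT and 29.4 ± 23.8 RPM (n = 9) in CTPR. The log2 fold change was 1.04 (SE 0.46, p = 0.0261, adjusted p = 0.142 by edgeR's quasi-likelihood test with Benjamini-Hochberg adjustment over 231 miRNAs).

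The hairpin mir-17, which gives the cluster its name, ran from 0 through a median of 2.64 to 7.40 RPM in CTCT and from 0.218 through 5.88 to 13.6 in CTPR. The groups overlapped over most of their range. Its log2 fold change was 1.16 (SE 0.47, edgeR p = 0.0148, adjusted p = 0.130). For mir-18a, which lies next to it, the lowest, median and highest values were 0, 1.83 and 5.15 RPM in CTCT and 0.474, 3.52 and 10.5 RPM in CTPR, with a log2 fold change of 1.08 (SE 0.50, edgeR p = 0.0337, adjusted p = 0.142). The hairpin mir-92a-1, the most abundant of this cluster, had values of 7.90, 27.1 and 61.5 RPM in CTCT and 22.6, 46.7 and 71.5 RPM in CTPR. Its difference was 0.62 on the log2 scale (SE 0.38, edgeR adjusted p = 0.192), and -0.02 with TMM and -0.01 with miRNA reads as library size.

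In the mir-106b-25 cluster, mir-106b had lowest, median and highest values of 1.86, 6.15 and 14.8 RPM in CTCT and 3.05, 12.8 and 21.0 RPM in CTPR. The groups overlapped, and the log2 fold change was 0.80 (SE 0.37, edgeR p = 0.0339, adjusted p = 0.142). For mir-93 the values were 1.24, 13.9 and 31.2 RPM in CTCT and 6.04, 25.4 and 47.8 RPM in CTPR, with a log2 fold change of 0.80 (SE 0.40, edgeR adjusted p = 0.157). For mir-25 they were 16.7, 34.9 and 68.4 RPM in CTCT and 28.5, 52.8 and 90.9 RPM in CTPR. It had the smallest difference of the members tested, 0.51 (SE 0.38, edgeR adjusted p = 0.273), which turned to -0.16 with TMM, -0.16 with miRNA reads as library size and -0.06 with DESeq2. These settings all scale to the miRNA counts.

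**Figure D3:**
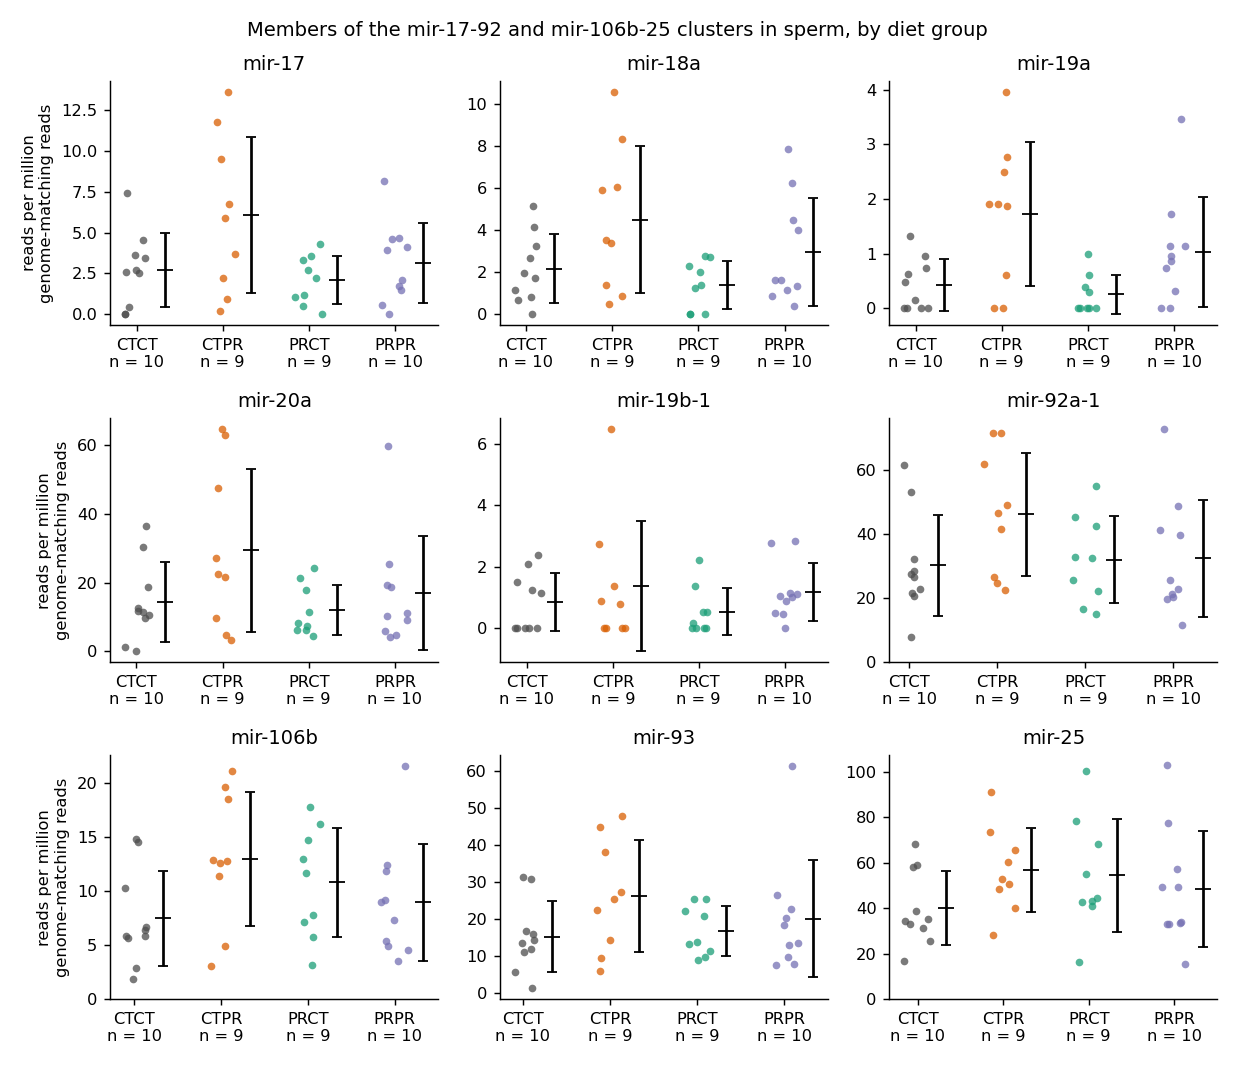
Level of each member (y axis, reads per 1000000 genome-matching reads, each panel with its own scale) in each mouse, by diet group (x axis), with the mean and SD as black bars. CTPR mice reach higher than CTCT mice for all 9 members, for example 64.7 against 36.5 for mir-20a, while the ranges of the groups compared overlap in every panel.

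These differences ran with the level of all miRNA. Of the 7 members tested, 4 (mir-17, mir-18a, mir-20a and mir-106b) had an unadjusted p under 0.05, all higher in CTPR, and so had 72 of all 231 miRNAs tested (31.2%), all of them higher. After adjustment 0 of 231 miRNAs passed (0%) with edgeR. With DESeq2, which scaled mice by their miRNA counts rather than by genome-matching reads, 0 passed and 16 had an unadjusted p under 0.05. The median log2 fold change over the 231 miRNAs was 0.12 with DESeq2. With edgeR on genome-matching reads it was 0.80 for the 7 members and 0.80 for the 231 miRNAs. Reads of the miRNA class made 2.47% ± 1.60 (SD, n = 9) of genome-matching reads in CTPR and 1.44% ± 0.93 (n = 10) in CTCT. Reads of small nucleolar RNA made 15.95% ± 7.72 and 27.5% ± 12.4.

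Marker miRNAs of sperm and of other tissues had higher median sums in CTPR too. The sums of the sperm markers ran from 105 through a median of 921 to 1597 RPM in CTPR and from 23.5 through 368 to 980 RPM in CTCT. Sums of the epididymal markers had ranges of 34.2 to 2227 RPM (median 1044) and 38.9 to 1294 RPM (median 525.5), and those of smooth muscle 70.7 to 8259 RPM (median 2522) and 62.3 to 3233 RPM (median 1503). Blood markers summed to 7.12 to 88.6 RPM (median 34.3) in CTPR and 3.72 to 33.6 RPM (median 23.8) in CTCT. All 21 markers of these 4 lists were detected in both groups. The part of the miRNA content, the small nucleolar RNA or the marker levels in the members' differences was not tested.

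Scaled to the miRNAs themselves, the members kept no common direction. With edgeR's TMM normalisation, which centres on the bulk of the miRNAs, the median over 231 miRNAs moved from 0.80 to 0.06, and 8 miRNAs were higher and 9 lower at an unadjusted p under 0.05, in place of 72 and 0. On this scale mir-17 stood at 0.35 (SE 0.30), mir-18a at 0.28 (SE 0.33), mir-20a at 0.26 (SE 0.29), mir-93 at 0.14 (SE 0.26) and mir-106b at 0.12 (SE 0.26). The log2 fold change of mir-92a-1 was -0.02 (SE 0.32) and that of mir-25 was -0.16 (SE 0.37), both with the sign turned. No member had an unadjusted p under 0.05 with TMM. Members of the miR-17 seed group thus lay above the members of the miR-92a seed group on both scales, without any test of that difference.

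Litter as a block compares each CTPR mouse with its CTCT littermate in 8 litters. In that fit the members' log2 fold changes were 0.39 to 0.68, against a median of 0.42 over 231 miRNAs. No member had an edgeR unadjusted p under 0.05, and 11 of the 231 miRNAs had one. With mice 47I1 and 47I2 grouped as in the second sample list, the members lay at 0.42 to 0.89, against a median of 0.64. Again no member had one, and 30 of 231 miRNAs did.

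**Figure D4:**
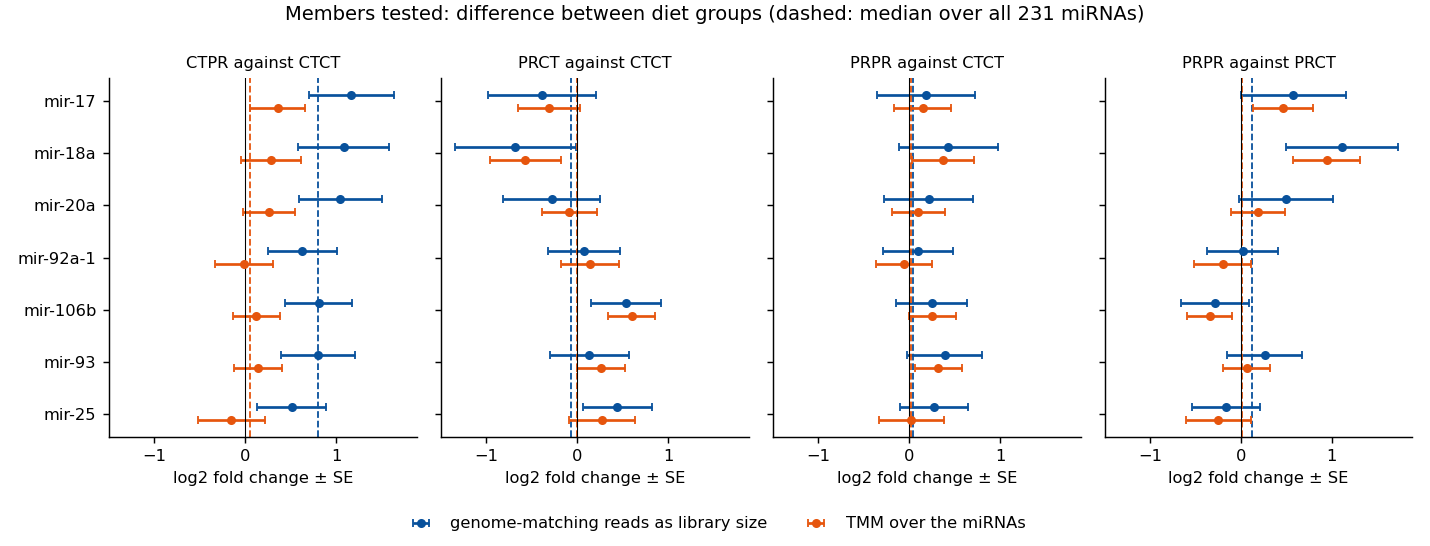
Log2 fold change with its standard error (x axis) of the 7 members tested (y axis) in 4 comparisons, with genome-matching reads as library size (blue) and with TMM over the miRNAs (orange). The dashed lines give the median over all 231 miRNAs tested on each scale. In CTPR against CTCT the blue points lie from 0.51 to 1.16 around a median of 0.80, and the orange points from -0.16 to 0.35 around 0.06.

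The members too sparse for the test were mir-19a and mir-19b-1. The level of mir-19a was 0.43 ± 0.476 RPM (SD, n = 10) in CTCT, 1.73 ± 1.32 (n = 9) in CTPR, 0.257 ± 0.359 (n = 9) in PRCT and 1.04 ± 1.01 (n = 10) in PRPR. It was unlisted in 4, 2, 5 and 2 mice of these groups, and 6 of 9 CTPR mice lay above the highest CTCT mouse (1.32 RPM). Fitted without the filter on low counts, its log2 fold change in CTPR against CTCT was 1.98 (SE 0.67, edgeR p = 0.00325, adjusted p = 0.280 over 689 miRNAs), and in PRPR against PRCT it was 1.86 (SE 0.84, edgeR p = 0.0271, adjusted p = 1.00). In that fit 83 of 689 miRNAs had an unadjusted p under 0.05 in CTPR against CTCT, 81 of them higher, with a median log2 fold change of 0.76 over all. In PRPR against PRCT 5 of 689 had one. The level of mir-19b-1 was 0.836 ± 0.952 RPM in CTCT, 1.36 ± 2.13 in CTPR, 0.533 ± 0.773 in PRCT and 1.17 ± 0.935 in PRPR, each spread larger than or close to its mean.

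Restriction before weaning (PRCT against CTCT) went with no shared direction among the members, and none had an unadjusted p under 0.05. Of all 231 miRNAs tested 1 had one (0.433%, a lower one), 7 had one with DESeq2, and with TMM 14 were higher and 4 lower. The median log2 fold change was 0.08 for the members and -0.07 for all miRNAs. The members of mir-106b-25 were on the higher side, with 0.53 (SE 0.38) for mir-106b, 0.44 (SE 0.38) for mir-25 and 0.13 (SE 0.43) for mir-93. Within mir-17-92, 3 hairpins were on the lower side, with -0.68 (SE 0.66) for mir-18a, -0.39 (SE 0.60) for mir-17 and -0.28 (SE 0.53) for mir-20a, the last at 0.0007 with DESeq2. The edgeR adjusted p was 0.987 for each. With TMM, mir-106b stood at 0.60 (SE 0.26, edgeR p = 0.0252, adjusted p = 0.575).

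In PRCT mice mir-106b ran from 3.19 through a median of 11.7 to 17.7 RPM, with 2 of 9 mice above the highest CTCT mouse. The level of mir-25 ran from 16.6 through 44.5 to 100.4 RPM, with 3 mice above and 1 below all CTCT mice, and that of mir-92a-1 from 15.1 through 32.6 to 55.1 RPM. The level of mir-20a ran from 4.33 through 8.36 to 24.3 RPM. The ratio of mir-106b-25 to mir-17-92 was 1.79 ± 0.536 (SD, n = 9) in PRCT, 1.42 ± 0.474 (n = 10) in CTCT, 1.25 ± 0.42 (n = 9) in CTPR and 1.47 ± 0.342 (n = 10) in PRPR. These ratios overlapped across the 4 groups.

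Restriction in both periods (PRPR against CTCT) gave log2 fold changes of 0.10 to 0.43 for the members, 7 of 7 on the higher side, with an edgeR adjusted p of 0.999 for each. None had an unadjusted p under 0.05, against 1 of 231 miRNAs (0.433%, lower), 10 with DESeq2, and 5 higher and 0 lower with TMM. The largest values were 0.43 (SE 0.55) for mir-18a and 0.39 (SE 0.41) for mir-93, and the median over all miRNAs was 0.05. The smallest, that of mir-92a-1 (0.10, SE 0.39), turned to -0.06 with TMM, -0.02 with miRNA reads as library size and -0.13 with DESeq2, and that of mir-25 (0.28, SE 0.38) to -0.08 with DESeq2. This comparison shares its CTCT mice with both comparisons above. Lowest, median and highest levels in PRPR were 15.4, 41.7 and 103 RPM for mir-25, 11.7, 24.3 and 72.9 RPM for mir-92a-1, 4.14, 10.7 and 59.7 RPM for mir-20a and 3.52, 8.11 and 21.5 RPM for mir-106b. Mouse 40H3 was the highest for all of them.

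For restriction after weaning in sons of PR dams (PRPR against PRCT), the largest difference among the members tested was that of mir-18a, and it did not pass the test. Its level was unlisted in 3 of 9 PRCT mice and in 0 of 10 PRPR mice, with a mean of 1.37 ± 1.15 RPM (SD) against 2.95 ± 2.55. The log2 fold change was 1.11 (SE 0.62, edgeR p = 0.0755, adjusted p = 1.00), and with TMM it was 0.94 (SE 0.37, edgeR p = 0.0143, adjusted p = 0.941). None of the members had an unadjusted p under 0.05 in the first of these fits, against 1 of 231 miRNAs (0.433%, higher), and with TMM 6 were higher and 2 lower. With DESeq2 mir-18a had a log2 fold change of 0.88 (SE 0.42, p = 0.0385, adjusted p = 0.993). The other members of mir-17-92 lay at 0.58 (SE 0.58) for mir-17, 0.50 (SE 0.52) for mir-20a and 0.02 (SE 0.39) for mir-92a-1, the last turning to -0.20 (SE 0.31) with TMM, -0.17 with miRNA reads as library size and -0.20 with DESeq2. Those of mir-106b-25 lay at 0.26 (SE 0.42) for mir-93, -0.16 (SE 0.37) for mir-25 and -0.29 (SE 0.37) for mir-106b.

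Whether the difference with diet after weaning depended on the mother's diet was tested as an interaction. The value was the PRPR to PRCT difference minus the CTPR to CTCT difference. For mir-106b it was -1.09 (SE 0.53, edgeR p = 0.0418, adjusted p = 0.647), from 0.80 in sons of CT dams and -0.29 in sons of PR dams. Of 231 miRNAs 5 had an unadjusted p under 0.05 (2.16%, all negative), and mir-106b was the only member among them, while with TMM 5 were positive and 2 negative. The median was -0.59 for the members and -0.67 for all miRNAs, and the value for mir-106b was -0.46 (SE 0.36) with TMM. With litter as a block it was -0.79 (SE 0.48, edgeR p = 0.112, adjusted p = 0.918). No member had an unadjusted p under 0.05 with the block, with DESeq2 or with the second sample list. Of all 231 miRNAs, 2, 9 and 4 had one in these fits. For mir-18a the interaction was 0.03 (SE 0.73), and with TMM it was 0.66 (SE 0.50).

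Littermates give the same comparisons within families. In 8 litters of CT dams the restricted son had the higher mir-92a-1 and mir-106b level in 6, and the higher mir-20a and mir-25 level in 5. On log2 of RPM plus 1, which understates differences of low members, the mean difference was 0.63 ± 1.25 (SD) for mir-20a, 0.52 ± 0.73 for mir-106b, 0.46 ± 0.69 for mir-92a-1 and 0.39 ± 0.62 for mir-25. The miRNA class was itself higher in 6 of 8, by 0.37 ± 0.83. These litters include the littermates whose groups differ between the labels and the second sample list. In that litter the mouse labelled CTPR was higher for each of these hairpins and for the miRNA class. With the second list, each count of litters with a higher restricted son, and each of these means, would thus be lower. The largest gap for mir-20a was in litter 57P, with 9.69 RPM in the CTCT mouse and 63.1 RPM in the CTPR mouse. The reverse was largest in litter 49K, where mir-20a was 11.6 RPM in the CTCT mouse and 4.65 RPM in the CTPR mouse, while mir-25 was 38.8 and 52.8 RPM. In that litter mir-93, of the same cluster as mir-25, was 16.6 and 6.04 RPM, so members of 1 cluster lay on different sides.

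In 9 litters of PR dams the restricted son had the higher mir-17-92 sum in 7 of 9 litters and the higher mir-106b-25 sum in 3 of 9. The miRNA class was higher in 5 of 9, by a mean of -0.07 ± 0.62. The mean differences of the clusters, 0.06 ± 0.88 and -0.12 ± 0.80, were well within their spread, and the difference between the clusters was not tested. By member the restricted son was higher in 7 of 9 litters for mir-18a, 6 of 9 for mir-20a and mir-92a-1, 5 of 9 for mir-93, and 3 of 9 for mir-106b and mir-25. In litter 51O the restricted son was lowest against its littermate for both sums, with mir-25 at 55.1 RPM in the PRCT mouse and 15.4 RPM in the PRPR mouse, mir-20a at 17.8 and 4.69 RPM, and the miRNA class at 16733 and 6573 RPM. With litter as a block the log2 fold change was 1.18 (SE 0.72, edgeR adjusted p = 0.999) for mir-18a and between -0.22 and 0.40 for the other members.

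**Figure D5:**
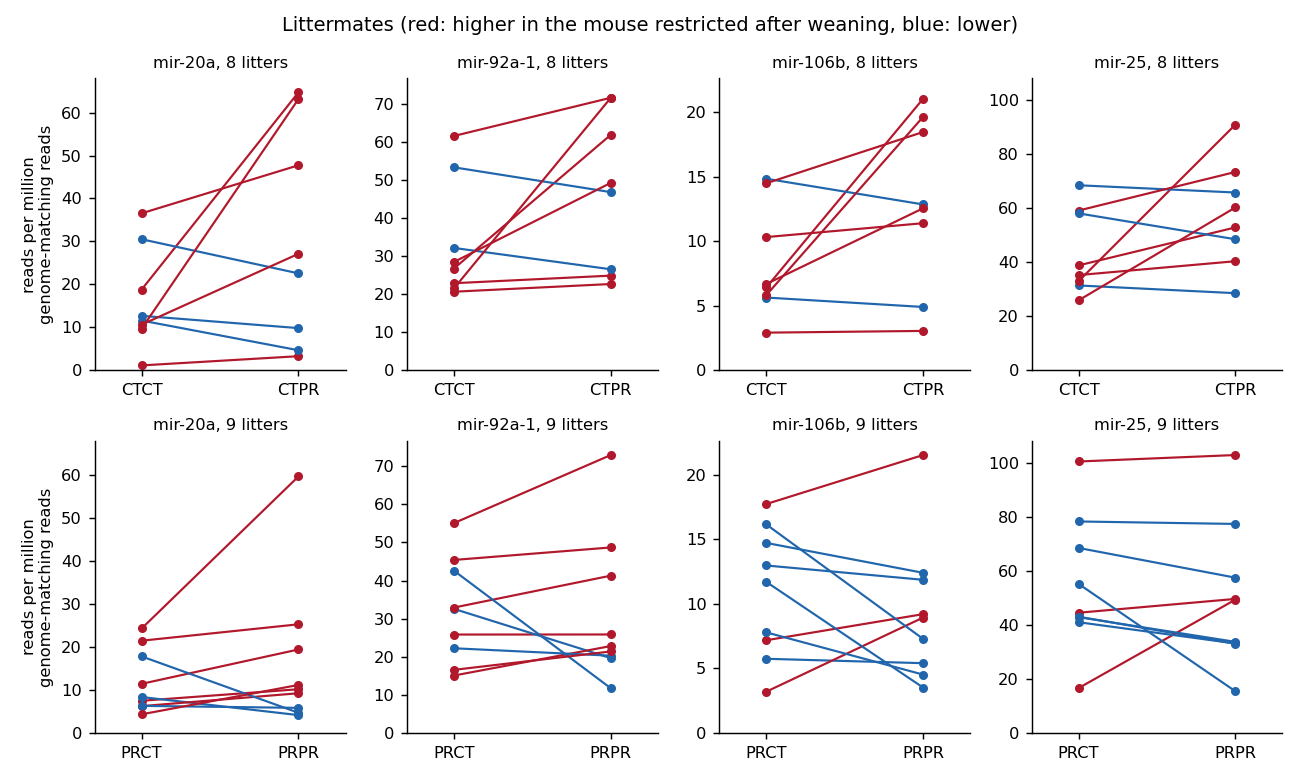
Level (y axis, reads per 1000000 genome-matching reads) of mir-20a, mir-92a-1, mir-106b and mir-25 in littermates joined by a line, with the mouse on the CT diet after weaning on the left of each panel and its restricted littermate on the right. The upper row shows 8 litters of CT dams and the lower row 9 litters of PR dams, with red for a higher and blue for a lower level in the restricted littermate. Lines cross in every panel, and mir-25 is lower in the restricted littermate in 6 of the 9 litters of PR dams. The upper row includes the littermates whose groups differ between the labels and the second sample list, drawn as labelled.

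As a share of miRNA reads, the group means were closer together than in RPM. The mir-17-92 sum made 0.423% ± 0.181 (SD, n = 10) of miRNA reads in CTCT, 0.503% ± 0.42 (n = 9) in CTPR, 0.439% ± 0.29 (n = 9) in PRCT and 0.431% ± 0.152 (n = 10) in PRPR. For mir-106b-25 the shares were 0.622% ± 0.395, 0.656% ± 0.68, 0.727% ± 0.405 and 0.65% ± 0.356. The group means differed by less than the spread within any group. The highest CTPR mouse was 02A8, at 1.59% and 2.41%, far above the CTPR medians of 0.386% and 0.395%. For mir-17-92 the medians were 0.421% in CTCT, 0.326% in PRCT and 0.400% in PRPR. For mir-106b-25 they were 0.469%, 0.614% and 0.515%, so that CTPR had the highest median in RPM and the lowest as a share.

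The make-up of each cluster overlapped between groups as well. The share of mir-92a-1 in mir-17-92 was 65.7% ± 16.4 in CTCT, 58.6% ± 14.4 in CTPR, 68.1% ± 5.29 in PRCT and 60.5% ± 8.75 in PRPR, and that of mir-20a was 23.6% ± 11.9, 28.1% ± 10.7, 23.8% ± 4.33 and 26.1% ± 6.00. The share of mir-25 in mir-106b-25 was 66.3% ± 8.90, 61.2% ± 7.96, 65.8% ± 5.29 and 63.7% ± 5.81. In both clusters the last hairpin had its lowest mean share in CTPR, by less than the SD of that group. The hairpins with seeds of the family that lie outside the clusters were tested in the same fit. Of the 8 such hairpins, 3 passed the filter (mir-19b-2, mir-92a-2 and mir-32). Their log2 fold changes in CTPR against CTCT were 0.86 (SE 0.81), 0.53 (SE 0.64) and 1.36 (SE 0.83). The median over all 231 miRNAs was 0.80. With edgeR, 0 of these 3 had an unadjusted p under 0.05 in any of the 5 contrasts. Of all miRNAs, 31.2% had one in CTPR against CTCT and 0.433% to 2.16% in the other contrasts. A count over 3 hairpins cannot show that they were unchanged.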

How the data were processed

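Sperm small RNA was sequenced from 38 mice. Per the study's methods, libraries were made from the small RNA fraction with the NEBNext small RNA kit, amplified by PCR, pooled and size selected. The pool was rebalanced after a first run and sequenced as single-end reads on an Illumina NextSeq. No molecular identifiers are named. The authors mapped reads with SPORTS 1.0 to mm10 and to databases of small RNA, and deposited whole-number read counts per class and per class member, which are the values used here. How reads matching several hairpins were shared is not given in the sources used here, nor is strand. The members and gene lists were chosen with earlier results of these data known. The named miRNAs were all 9 members, the related hairpins, the 3 miRNAs most like each cluster by Spearman rho over mice, and the 3 most abundant.

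Counts of all miRNA hairpins were tested with edgeR 4.0.16 (glmQLFTest, two-sided, in R 4.3.3), with genome-matching reads as library size, as the study did for tRNA fragments, after filterByExpr (minimum count 10), in 1 fit over 4 groups. Benjamini-Hochberg adjustment ran over all 231 miRNAs tested, at a threshold of 0.05. DESeq2 1.42.0 was 1 of the other settings, and 3 more were chosen after seeing the data. DESeq2 scaled mice by size factors from the miRNA counts, so it differs from the main fit in library size as well as in method. A setting with the genome-matching totals of the study's supplement repeated the main fit, since those totals were the same. The fits were tested on simulated data, where at the spread of these mice most 2-fold changes did not pass adjustment. With the litter block nearly all were missed there. The simulated mice had no litter effect and no shared shift in miRNA content, so the block could gain nothing in them. A member that did not pass was thus not shown to be unchanged. Levels (RPM) are reads per 1000000 genome-matching reads. Tables were made with Python 3.11.15 with pandas 2.3.3 and scipy 1.17.1. P-values measure the spread between mice within groups, with littermates of different groups treated as independent. Only the litter-block fit used the pairing, and its p-values measure the spread of differences between littermates. Hairpins listed in a file sum to 165 to 508 reads less than its miRNA total, and a second miRNA class of the pipeline (12532 to 378978 reads) was not resolved by hairpin and not used. No mice agreed within sampling noise, with a chi-square per degree of freedom of at least 12.2 between mice of a group.

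The mouse names in the labels give the litter, which pairs mice of different diets after weaning. Deviations from the group mean correlated by over 0.1 in 11 of 17 litters (median 0.26, over 66 miRNAs).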

Additional observations from a re-analysis of the deposited data

Results flagged for a closer look

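In 13 of 72 sets (a member in a diet group, as RPM or as a percent of miRNA reads), the lowest or highest mouse stood apart from the others by Dixon's criterion, which chance meets in about 1 of 20 sets. The sets are not independent, since members of a mouse share a library and each member enters on both scales. Of the 13, 5 were in RPM and 8 in percent.

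Mouse 40H3 accounted for 4 of those in RPM, all in PRPR. It had 3.46 RPM of mir-19a, with 1.72 in the nearest mouse, and 59.7 RPM of mir-20a, with 25.3 in the nearest. Its mir-106b level was 21.5 RPM (nearest 12.4) and its mir-93 level 61.1 RPM (nearest 26.5). This mouse also had the highest miRNA content of its group, 3.15% of genome-matching reads. In CTPR, mouse 47I2 had 6.49 RPM of mir-19b-1 (nearest 2.74). It is 1 of the littermates whose group differs between the labels and the second sample list.

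As a percent of miRNA reads, mouse 02A8 (CTPR) stood apart for 5 members, with 0.0512% for mir-18a (nearest 0.0250%), 1.33% for mir-92a-1 (nearest 0.349%), 0.179% for mir-106b (nearest 0.0713%), 0.551% for mir-93 (nearest 0.202%) and 1.68% for mir-25 (nearest 0.566%). It had the fewest miRNA reads of all mice, 7805. Mouse 09H7 (CTCT) had 0.0507% of mir-17 (nearest 0.0248%), mouse 51O3 (PRPR) had 0% of mir-17 (nearest 0.0157%), and mouse 08G3 (PRCT) had 0.0141% of mir-19a (nearest 0.00429%).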

How the results depend on the processing

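No member passed an adjusted p of 0.05 under any alternative run. Under the alternatives, 452 log2 fold changes of single hairpins kept their direction and 25 turned. None of the 25 had an unadjusted p under 0.05 in the first place. The 452 include those of the setting with the genome-matching totals of the study's supplement, which repeated the main fit and could turn none. In CTPR against CTCT, mir-92a-1 turned to -0.018 (TMM) and -0.015 (miRNA reads as library size), and mir-25 to -0.16, -0.16 and (DESeq2) -0.057. In PRCT against CTCT, mir-20a turned to 0.0007 (DESeq2), mir-92a-1 to -0.023 without 4 mice whose class totals were incomplete and -0.13 without the 10 mice under 50000 miRNA reads, and mir-93 to -0.025 without those 4. In PRPR against CTCT, mir-17 turned to -0.012 with the grouping of the second sample list, mir-92a-1 to -0.059 (TMM), -0.019 (miRNA library size), -0.13 (DESeq2) and -0.020 (without 4 mice), and mir-25 to -0.081 (DESeq2). In PRPR against PRCT, mir-92a-1 turned to -0.20 (TMM), -0.17 (miRNA library size), -0.20 (DESeq2), -0.081 (litter as replicate block) and -0.018 (paired mice without the litter term). In the interaction, mir-17 turned to 0.11 (TMM), 0.21 (miRNA library size) and 0.14 (DESeq2), mir-18a to -0.065 without litter 47I, and mir-20a to 0.042 (miRNA library size).

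Counts of miRNAs with an unadjusted p under 0.05 moved more, and the cause was not tested. For CTPR against CTCT the count of 72 became 17 (TMM), 13 (miRNA library size), 14 (at least 10 reads in every mouse), 16 (DESeq2), 9 (older edgeR method), 11 (litter block), 30 (second list), 29 (without 4 mice) and 0 (paired mice without the litter term). For PRCT against CTCT the count of 1 became 18 (TMM), 12 (miRNA library size), 3 (no filter), 7 (DESeq2), 4 (second list), 4 (without litter 47I) and 6 (without the 10 mice). For PRPR against CTCT the count of 1 became 5 (TMM), 7 (miRNA library size), 6 (no filter), 10 (DESeq2), 3 (without the 10 mice) and 0 with at least 10 reads, the older method or without litter 47I. For PRPR against PRCT the count of 1 became 8 (TMM), 10 (miRNA library size), 5 (no filter), 8 (DESeq2), 6 (without the 10 mice) and 0 with at least 10 reads, the older method or paired mice alone. For the interaction the count of 5 became 9 (miRNA library size), 10 (no filter), 2 (at least 10 reads), 9 (DESeq2), 2 (litter block), 17 (without litter 47I), 2 (without 4 mice), 10 (without the 10 mice) and 0 with the older method or paired mice alone. With 8621 small RNAs of all classes in 1 fit, the counts were 770, 408, 333, 303 and 473 in this order, and after adjustment 3, 1 and 1 passed in the last 3, with no member among them. The other 92 counts, unadjusted and adjusted together, were within 1.5 times, and most of these were adjusted counts that stayed at 0.

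PRCT and PRPR mice come from other litters than CTCT mice, so no paired analysis was possible because no litter is shared in those comparisons. Low counts left mir-19a and mir-19b-1 out of the test.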
